A study of Mus musculus with 23 samples.

Results

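Male F1 mice from PWD mothers were compared by the strain of their father: PWDxB6 (3 arrays) against PWDxPWK (2 arrays), 5 of the 23 arrays of the series, chosen by the genotype in the sample titles. PWD and PWK are inbred strains derived from Mus musculus musculus, and B6 descends mostly from Mus musculus domesticus, so the PWDxB6 father came from another subspecies and the PWDxPWK father from the mother's own. Each array held RNA of spermatogenic cells isolated from 4 pooled testes at day 14.5 after birth, when germ cells have reached meiotic prophase, and no group received a treatment. The authors removed another PWDxPWK array as an outlier before deposit, per the series design text. Set beside this pair were inbred B6 (3 arrays), inbred PWD (3 arrays), B6xPWD (3 arrays, with a B6 mother and a PWD father) and B6xBALB/C (6 arrays, with a B6 mother and a BALB/C father), while BALB/CxB6 (3 arrays) entered the fit as part of its estimate of the spread.

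Because the mother is named first, PWDxB6 and PWDxPWK males carry the same PWD X chromosome and a PWD copy of every autosome. They differ in the other autosomal copy and in the Y, which come from B6 or from PWK. In male meiosis the unpaired X and Y are normally silenced at pachytene, a process called meiotic sex chromosome inactivation. PWDxB6 males are known as sterile, with arrest in meiosis and incomplete silencing of the sex chromosomes, in a hybrid incompatibility that involves the histone methyltransferase gene Prdm9 and the PWD X.

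Expression was read as log2 values for 19661 genes, of which 14745 were bright enough to be tested: 14221 on autosomes, 474 on the X and 8 on the Y. Array medians lay between 6.13 and 6.28 on the log2 scale, PWDxB6 arrays correlated with each other at 0.9831 to 0.9911 and the PWDxPWK arrays at 0.9851 over genes. Among the other genotypes, B6xBALB/C replicate 6 stood apart: its pachytene score (mean gene-centred log2 level of pachytene genes) was -0.6348, against 0.2354 to 0.8253 on the other 5, and its lowest correlation with them was 0.9543. Some results that rest on it are given with and without it, and the others with it only. Precision is limited by the few arrays. The labels number the pools without naming litters, and p-values therefore rest on the spread between pools, which may be technical. In RNA pooled over many cells, as here, fewer cells of a type and less RNA per cell cannot be told apart. Array probes follow the reference mouse sequence, which is that of a B6 mouse. Both hybrids present the PWD sequence to X-linked probes, except for 2 of the 474 genes, G530011O06Rik and Mid1, which in the reference lie in or across the pseudoautosomal region that the X shares with the Y. There, and for autosomal and Y-linked genes a difference in probe match and a difference in transcript amount cannot be told apart.

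With a B6 father in place of a PWK father, 211 genes passed the test (1.43% of those tested), 141 of them higher (0.956%) and 70 lower (0.475%) in PWDxB6. On the X chromosome 10 genes were higher (2.11% of 474) and 0 lower. By limma, 69 of 474 X-linked genes had an unadjusted p under 0.05, where 1586 of 14221 autosomal genes did. On autosomes 199 genes passed (1.4%), 129 higher (0.907%) and 70 lower (0.492%), and on the Y 2 of 8 were higher (25%) and 0 lower by limma, with the same 2 at an unadjusted p under 0.05. The count of 211 depended on the PWDxPWK arrays: it was 94 without PWDxPWK replicate 1 and 138 without PWDxPWK replicate 2. It was 137 with those 5 arrays fitted alone, 139 with the dimmer 50% of genes left out, and 341 with a pachytene score added to the model.

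Of the 10 X-linked genes that rose in PWDxB6, 6 are on a list of X-linked germ cell genes. The largest difference was in 1700080O16Rik, a RIKEN gene (chromosome X, 51968693 to 51973502, GRCm38.p6), with log2 levels of 9.04, 9.76 and 8.95 in PWDxB6 against 7.26 and 7.71 in PWDxPWK. The groups did not overlap, and the difference was 1.76 on the log2 scale (SE 0.25, adjusted p = 0.000236). Gm9 had 7.01, 7.78 and 6.98 in PWDxB6 against 5.92 and 6.02 in PWDxPWK, a difference of 1.29 (SE 0.21, adjusted p = 0.00086). In both genes PWDxB6 replicate 2 was the highest array.

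Prame, a cancer-testis antigen gene, had log2 levels of 6.30, 7.29 and 6.39 in PWDxB6 against 5.46 and 5.30 in PWDxPWK (difference 1.28, SE 0.22, adjusted p = 0.0019). Ccnb3 encodes cyclin B3, which acts in meiotic prophase. It had 9.06, 9.23 and 8.78 in PWDxB6 against 8.15 and 7.86 in PWDxPWK (difference 1.02, SE 0.20, adjusted p = 0.0046). Nxt2, an mRNA export factor, had 9.61, 10.25 and 9.69 in PWDxB6 against 8.98 and 9.0 in PWDxPWK (difference 0.86, adjusted p = 0.00229). For these 3 genes, too, the lowest PWDxB6 array lay above the highest PWDxPWK array.

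The other X-linked genes past the test had smaller differences. They were Fndc3c1 (0.83, adjusted p = 0.0166), the monoamine oxidase gene Maoa (0.65, adjusted p = 0.0106), the transketolase-like gene Tktl1 (0.64, adjusted p = 0.0239), the testis gene Tsga8 (0.61, adjusted p = 0.00347) and Praf2 (0.57, adjusted p = 0.0356), a membrane trafficking gene named here after its values were seen. Tktl1, an X-linked relative of a pentose phosphate enzyme, lost its call in 5 of 15 alternatives and Maoa in 3 of 15. Ccnb3 lost its call without PWDxPWK replicate 2 (adjusted p = 0.1285 there), as did Fndc3c1, which also lost it without PWDxB6 replicate 3. Nxt2 and Tsga8 lost theirs without PWDxPWK replicate 1 and with the 5 arrays fitted alone. 1700080O16Rik kept its call in all 15 alternatives, and Gm9 and Prame in the 14 in which they were tested.

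Both copies of the Y-linked zinc finger gene Zfy, which encode transcription factors needed in spermatogenesis, were higher in PWDxB6. Zfy1 had log2 levels of 7.93, 8.58 and 7.65 in PWDxB6 against 6.92 and 6.87 in PWDxPWK (difference 1.16, SE 0.25, adjusted p = 0.0164). Zfy2 had 8.32, 8.67 and 7.90 in PWDxB6 against 7.13 and 7.22 in PWDxPWK (difference 1.12, SE 0.22, adjusted p = 0.0046). The genes are close copies whose probes may share signal, so their values are not independent, and without PWDxPWK replicate 1 both calls were lost. Zfy1 also lost its call without PWDxPWK replicate 2 or PWDxB6 replicate 2. The Y of PWDxB6 is also carried by inbred B6, where Zfy1 averaged 6.43 ± 0.25 and Zfy2 6.63 ± 0.18 (SD, n = 3), against 6.94 ± 0.32 and 7.20 ± 0.06 in inbred PWD (SD, n = 3).

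Among the other Y-linked genes, 6 of 8 tested, no call was made. Differences were 0.31 for Usp9y, 0.16 for Uty, 0.15 for Sry, 0.14 for Eif2s3y, -0.22 for Kdm5d and -0.22 for Uba1y. Usp9y and Uba1y act on ubiquitin, Uty and Kdm5d are relatives of histone demethylases, Eif2s3y encodes a translation initiation subunit and Sry is the sex-determining gene. The plot of sex-linked genes shows the arrays of every X- and Y-linked gene past the test.

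**Figure D1:**
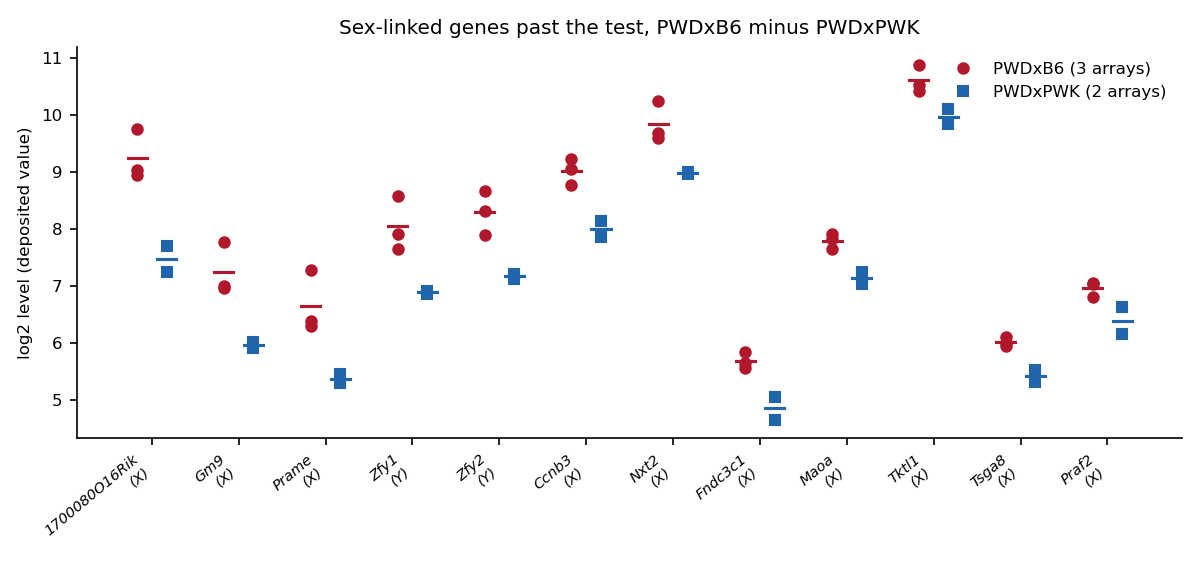
Log2 level (vertical axis) of each array for the 10 X-linked and 2 Y-linked genes past the test, with PWDxB6 as red circles (3 arrays) left of PWDxPWK as blue squares (2 arrays); short lines are group means. In each of the 12 genes the PWDxB6 arrays lie above the PWDxPWK arrays, by 1.76 in the mean for 1700080O16Rik and by 0.57 for Praf2.

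Beyond the called genes, X-linked genes as a whole lay slightly higher in PWDxB6. The median difference was 0.087 over 474 X-linked genes, 68.6% of which were positive, against -0.008 over autosomal genes, 48.1% of which were positive. Groups did not overlap with PWDxB6 higher in 105 X-linked genes (22.2%) and with PWDxB6 lower in 31 (6.54%), where the autosomal shares were 12.7% and 14.1%. The X score is the mean log2 level of X-linked genes on an array less that of autosomal genes, without gene centring. It was 0.0999, 0.1401 and 0.1241 in PWDxB6 against -0.0231 and 0.0498 in PWDxPWK. All PWDxB6 arrays were above both PWDxPWK arrays, with means of 0.121 ± 0.02 in PWDxB6 (SD, n = 3) and 0.013 ± 0.052 in PWDxPWK (SD, n = 2). The difference of 0.108 gave p = 0.2 in a two-sided exact permutation test, which is the smallest p that 3 against 2 arrays allow. The median of the X-linked genes was 0.0466 without PWDxPWK replicate 1 and 0.1362 without PWDxPWK replicate 2.

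X-linked germ cell genes and X-linked genes of general function were read as separate lists. Of 20 tested genes on a list of X-linked germ cell genes, 6 were higher (1700080O16Rik, Prame, Ccnb3, Nxt2, Tktl1 and Tsga8) and 0 lower, where 0.956% of all genes and 2.11% of X-linked genes were higher, with a median difference of 0.343, and 15 of 20 were positive. Of 17 X-linked housekeeping genes 0 passed the limma test in either direction, 5 had an unadjusted p under 0.05, and the median was 0.089. The difference between these 2 lists was not tested. Among germ cell members that did not pass were Rbmx (0.58), an RNA-binding protein gene, Usp26 (0.41), a testis deubiquitinase gene, Fmr1 (0.38), Taf7l (0.31), a germ cell relative of a TFIID subunit, Rhox13 (-0.23) and Magea5 (-0.56). The count of 6 was 3 without PWDxPWK replicate 1 and 3 with the 5 arrays fitted alone.

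The mean of the 20 X-linked germ cell genes, relative to all arrays, was 0.2916, 0.6776 and 0.1901 in PWDxB6 against 0.0774 and -0.0561 in PWDxPWK. PWDxB6 replicate 2 stood highest. The same array had the highest score for autosomal pachytene genes in its group: -0.5051, -0.2 and -0.6241 in PWDxB6 against -0.2425 and -0.2582 in PWDxPWK. The part of germ cell stage in the X-linked values was not tested. The fit with the pachytene score, in which 16 X-linked genes passed, also had more autosomal calls and cannot decide it. Of 4 tested genes in the interval of the X that holds the Hstx2 sterility locus (Fmr1, Fmr1nb, Aff2 and Ids), 0 passed the limma test and 1 had an unadjusted p under 0.05, with a median of 0.063.

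The X-linked genes could be set against a comparison of other arrays, in which the mother was B6: B6xPWD minus B6xBALB/C. There the X came from B6 in both hybrids, again with a father of another subspecies against one of the mother's own. Of the 10 X-linked genes higher in PWDxB6, 9 were also higher in B6xPWD, out of 90 X-linked genes called higher in that comparison (19% of 474, where 19.6% were called in either direction). Without B6xBALB/C replicate 6, 9 of the 10 were again called higher, out of 106. Across 474 X-linked genes the differences of both comparisons correlated at r = 0.28, a description over genes that share arrays within each comparison. Against B6 minus PWD, r was -0.115 over the same genes.

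In 1700080O16Rik the difference was 1.99 in B6xPWD minus B6xBALB/C (adjusted p = 8.81e-07), with means of 8.49 ± 0.33 in B6xPWD (SD, n = 3) and 6.5 ± 0.36 in B6xBALB/C (SD, n = 6). It was 1.12 for Prame, 0.94 for Ccnb3, 0.94 for Nxt2, 0.84 for Gm9, 0.77 for Tsga8, 0.49 for Fndc3c1, 0.44 for Tktl1 and 0.41 for Maoa. Those 9 genes thus passed the test with either X chromosome. Praf2 was the exception, with -0.21 there. Zfy1 and Zfy2 were higher in B6xPWD by 1.67 each (adjusted p = 1.21e-05 and 1.17e-06), among 6 of 8 Y-linked genes called higher there (75.0%). Between the inbred strains, 5 of the 10 X-linked genes were called lower in B6 than in PWD, and 0 higher. Of all 474 X-linked genes, 11.2% were lower and 7.59% higher there. B6 minus PWD was -1.38 for 1700080O16Rik and -1.27 for Ccnb3. Neither PWDxB6 nor PWDxPWK carries the B6 X, and probe match can differ between the X of B6 and that of PWD.

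**Figure D2:**
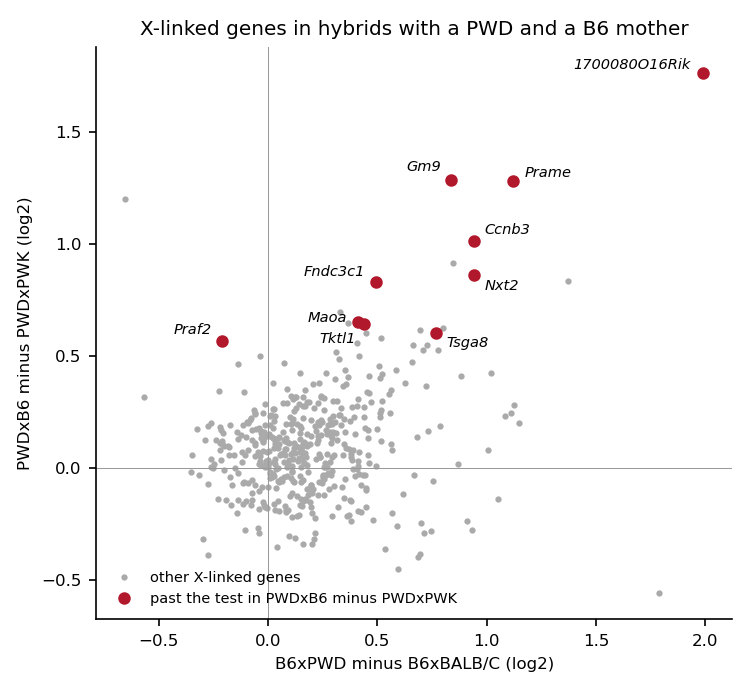
Log2 difference of each of the 474 X-linked genes in B6xPWD minus B6xBALB/C (horizontal axis) and in PWDxB6 minus PWDxPWK (vertical axis); red points passed the test in the latter comparison, grey points did not. Of 10 red points, 9 lie right of 0, and Praf2 lies left of it at -0.21.

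The difference of the 2 comparisons, fitted as an interaction, passed for 16 X-linked genes (3.38%), 3 of them with a larger difference under the PWD X (0.633%) and 13 with a smaller one (2.74%). Over all genes it passed for 5.15%, with 2.49% positive and 2.66% negative, and the X-linked share was not above that. The 2 shares are unlike, because on autosomes the interaction also holds strain differences, which run in opposite directions in the 2 comparisons. Without B6xBALB/C replicate 6 all 16 passed again, among 21. These genes were singled out after their values were seen. The largest was Magea5, a melanoma antigen gene with close copies, at -2.34 (SE 0.47, adjusted p = 0.0041): it had 5.2, 6.34 and 4.59 in PWDxB6 against 6.22 and 5.64 in PWDxPWK, where the groups overlapped, while B6xPWD averaged 7.25 ± 0.33 (SD, n = 3) and B6xBALB/C 5.46 ± 0.35 (SD, n = 6). Rhox13, a reproductive homeobox gene, had an interaction of -1.14 (adjusted p = 0.0046), with a difference of -0.23 in PWDxB6 minus PWDxPWK and 0.91 in B6xPWD minus B6xBALB/C.

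Gm648 (-1.20), Trap1a (-1.18), Bex2 (-1.08), Lage3 (-1.07), Eola1 (-1.04), Pcdh11x (-1.03), Etd (-1.0), Fmr1nb (-0.85), Prdx4 (-0.85), Slc9a7 (-0.71) and Slc25a43 (-0.50) were the other X-linked genes with a negative interaction. Pcdh11x averaged 4.74 in PWDxB6 and 5.02 in PWDxPWK, both under the limit for dim genes (5.125), so the size of its interaction is uncertain. Probe match can differ between the PWD X and the B6 X, and its part in these interactions was not tested. Fmr1nb, which lies beside Fmr1 near the Hstx2 locus, had 0.02 in PWDxB6 minus PWDxPWK and 0.87 in B6xPWD minus B6xBALB/C. The interaction was positive for Praf2 (0.78), and for G530011O06Rik (1.85) and Mid1 (0.88), which as genes at the pseudoautosomal region can have a paternal copy too. Among Y-linked genes it passed for 1 of 8 (12.5%), Eif2s3y (-0.54, adjusted p = 0.0233), the translation factor gene. The Y comes from the father, so for Y-linked genes, too, the interaction holds strain differences. For Eif2s3y, B6 minus PWD was -0.33 (adjusted p = 0.0226), and the part of strain in its interaction was not tested. The X-linked count was 4 without PWDxPWK replicate 2, 9 without B6xPWD replicate 2, 10 without PWDxPWK replicate 1, PWDxB6 replicate 1 or 3 or B6xPWD replicate 1, and 53 with array weights.

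On autosomes many of the largest changes had the direction of B6 minus PWD, with Defb15 (-0.83 in B6 minus PWD) and Vaultrc5 (0.32, adjusted p = 0.335) as exceptions among the 10 largest rises and the 10 largest falls. Trim12a, a member of the Trim5 cluster of antiviral restriction factors (chromosome 7, 104299893 to 104315558, GRCm38.p6), had log2 levels of 7.17, 7.63 and 7.58 in PWDxB6 against 3.99 and 4.18 in PWDxPWK. Its fitted difference was 3.37 (SE 0.20, adjusted p = 2.79e-10), and inbred B6 averaged 8.57 ± 0.11 against 4.14 ± 0.23 in inbred PWD (SD, n = 3 each). Both PWDxPWK and PWD were under 5.125, the mean level below which genes were left out as dim, so the size of this difference is uncertain. The same holds for the PWDxPWK means of Zfp872, Fndc3c1, 1700006J14Rik and Bbox1. 2610524H06Rik had 8.27, 8.55 and 8.19 in PWDxB6 against 6.16 and 6.13 in PWDxPWK (difference 2.19, adjusted p = 3.37e-07), and B6 minus PWD was 3.13.

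Slc16a3, a lactate transporter gene, had 8.57, 8.39 and 8.67 in PWDxB6 against 6.96 and 6.63 in PWDxPWK (difference 1.75, adjusted p = 0.000127). Phgdh encodes the enzyme that starts serine synthesis, and had 8.13, 8.13 and 8.31 in PWDxB6 against 6.62 and 6.71 in PWDxPWK (difference 1.52, adjusted p = 1.98e-06). The beta-defensin gene Defb15 had 7.94, 9.24 and 7.86 in PWDxB6 against 6.57 and 6.83 in PWDxPWK (difference 1.65, adjusted p = 0.00207). Defb15 lost its call without PWDxPWK replicate 1 and with the 5 arrays fitted alone. The other genes among the 10 largest rises were the extracellular protein gene Olfml3 (1.60), Zfp872 (1.43), a zinc finger gene, 2610206C17Rik (1.37) and Rnpep (1.35), an aminopeptidase gene.

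The 10 largest falls were led by interferon-induced genes. Lgals3bp, a secreted galectin-binding glycoprotein, had 6.95, 6.94 and 6.78 in PWDxB6 against 9.54 and 9.37 in PWDxPWK (difference -2.57, SE 0.14, adjusted p = 7.36e-11). Mx2, an antiviral GTPase, had 5.44, 5.41 and 5.31 in PWDxB6 against 7.24 and 7.28 in PWDxPWK (difference -1.87, adjusted p = 5.63e-05). Rtp4, an interferon-induced chaperone of receptors, had 5.90, 5.83 and 5.69 in PWDxB6 against 7.47 and 7.44 in PWDxPWK (difference -1.65, adjusted p = 1.98e-06). The groups were far apart in all 3 genes.

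Ddx60 (-1.61) and Ddx58 (-1.30) follow, with Herc6 (-1.23), a ubiquitin ligase gene induced by interferon, and Xaf1 (-1.19), a gene of apoptosis that interferon also induces. S100b (-1.12), a calcium-binding protein gene, the vault RNA gene Vaultrc5 (-1.11) and 1810037I17Rik (-1.10) complete the 10. S100b lost its call without PWDxPWK replicate 2, Vaultrc5 in 3 of 14 alternatives and 1810037I17Rik in 4 of 14.

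The interferon response was the list with the most members past the test. Interferon induces its target genes through a sequence element in their promoters, and many targets sense or degrade viral RNA. Of 20 listed genes 18 were on the array and 15 were tested, and 8 were lower in PWDxB6 (background 0.475% of all genes) and 0 higher. The median difference was -0.497 against -0.006 over all genes, and groups did not overlap in 13 of 15 (background 26.9%). The count of 8 was 5 without PWDxPWK replicate 1.

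Ddx60, a helicase that aids the sensing of viral RNA (chromosome 8, 61928073 to 62037704), had 6.09, 5.77 and 5.62 in PWDxB6 against 7.34 and 7.52 in PWDxPWK (difference -1.61, SE 0.20, adjusted p = 4.82e-05). Ddx58 encodes the sensor RIG-I, and had 6.69, 6.64 and 6.79 in PWDxB6 against 7.79 and 8.23 in PWDxPWK (difference -1.30, SE 0.13, adjusted p = 2.19e-06). Oas1a, an activator of RNA decay, had 5.99, 5.80 and 6.50 in PWDxB6 against 7.22 and 7.12 in PWDxPWK (difference -1.08, adjusted p = 0.00978). PWDxB6 was lower on every array for these 3 sensors.

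Oasl2, of the same family as Oas1a, had 7.59, 7.49 and 7.67 in PWDxB6 against 8.51 and 8.48 in PWDxPWK (difference -0.92, adjusted p = 3.46e-05). Bst2, which tethers enveloped virus particles, had 7.08, 7.52 and 7.22 in PWDxB6 against 8.37 and 7.88 in PWDxPWK (difference -0.85, adjusted p = 0.00454). Usp18, a brake on interferon signalling, had 5.98, 5.68 and 5.82 in PWDxB6 against 6.67 and 6.52 in PWDxPWK (difference -0.77, adjusted p = 0.000911). The transcription factor genes of the pathway moved the same way: Irf7 by -0.80 (adjusted p = 0.000639) and Irf9 by -0.46 (adjusted p = 0.0353). Stat2 had -0.47 (adjusted p = 0.0534), and Ifih1, the sensor MDA5, -0.50 (adjusted p = 0.122), neither past the test. Ifi27 was the only tested member with a positive value, 0.41 (adjusted p = 0.432).

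Promoters of the listed genes were searched for a core of the interferon-stimulated response element, GAAANNGAAA on either strand, overlapping matches included, in the 250 bases before the start site. A match was found for 5 of 54 genes lower in PWDxB6 with a promoter in the table (9.26%), for 4 of 116 genes higher in PWDxB6 (3.45%) and for 320 of 11671 tested genes (2.74%). Of the interferon list, 13 tested genes had a promoter and 5 a match. Those that were both lower and matched are shown, as RefSeq sequences of GRCm38.p6 in the direction of the gene, ending at the base before the start site, with the matches in capitals. Ddx60 (chr8:61927837-61928086, plus strand) has 2 separate matches, and Oas1a (chr5:120907526-120907775, minus strand) and Bst2 (chr8:71537473-71537722, minus strand) have 2 that overlap each. The start site used for Ddx60 lies past the first base of the gene's span, 61928073, which falls within the match nearer to that start site.
Ddx60: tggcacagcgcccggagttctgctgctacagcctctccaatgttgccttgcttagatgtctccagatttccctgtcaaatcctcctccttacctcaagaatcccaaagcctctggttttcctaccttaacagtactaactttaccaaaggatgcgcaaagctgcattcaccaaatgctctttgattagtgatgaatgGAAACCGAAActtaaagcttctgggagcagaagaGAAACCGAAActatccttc
Oas1a: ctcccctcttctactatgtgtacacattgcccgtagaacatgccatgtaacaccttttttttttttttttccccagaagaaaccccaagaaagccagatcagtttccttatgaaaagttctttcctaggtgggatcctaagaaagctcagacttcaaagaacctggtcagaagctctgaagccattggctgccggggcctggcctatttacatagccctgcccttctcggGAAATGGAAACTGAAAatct
Bst2: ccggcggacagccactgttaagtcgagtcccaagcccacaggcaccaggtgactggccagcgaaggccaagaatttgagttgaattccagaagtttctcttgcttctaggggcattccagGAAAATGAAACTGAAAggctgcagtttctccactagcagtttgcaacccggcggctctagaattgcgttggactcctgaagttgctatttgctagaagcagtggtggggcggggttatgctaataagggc

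Taken over the list, interferon genes in PWDxPWK lay near their level in PWD, and those in PWDxB6 nearer to B6. The mean of the 15 genes relative to all arrays was -0.0934, -0.2052 and -0.1161 in PWDxB6 against 0.5394 and 0.4604 in PWDxPWK. It averaged -0.05 ± 0.015 in B6 and 0.38 ± 0.07 in PWD (SD, n = 3 each), and -0.081 ± 0.025 in B6xPWD (SD, n = 3) against -0.168 ± 0.071 in B6xBALB/C (SD, n = 6). PWDxB6 and B6xPWD both carry 1 PWD copy of these autosomal genes, and both had scores below 0. In Ddx58 the means were 6.71 ± 0.08 in PWDxB6 (SD, n = 3) and 8.01 ± 0.31 in PWDxPWK (SD, n = 2), beside 6.75 ± 0.07 in B6 and 7.84 ± 0.13 in PWD (SD, n = 3 each). Macrophage markers, from cells that answer interferon strongly, had scores of -0.0298, -0.295 and 0.2253 in PWDxB6 against -0.0955 and -0.1081 in PWDxPWK, and 0 of 11 tested markers passed the limma test, 1 with an unadjusted p under 0.05.

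**Figure D3:**
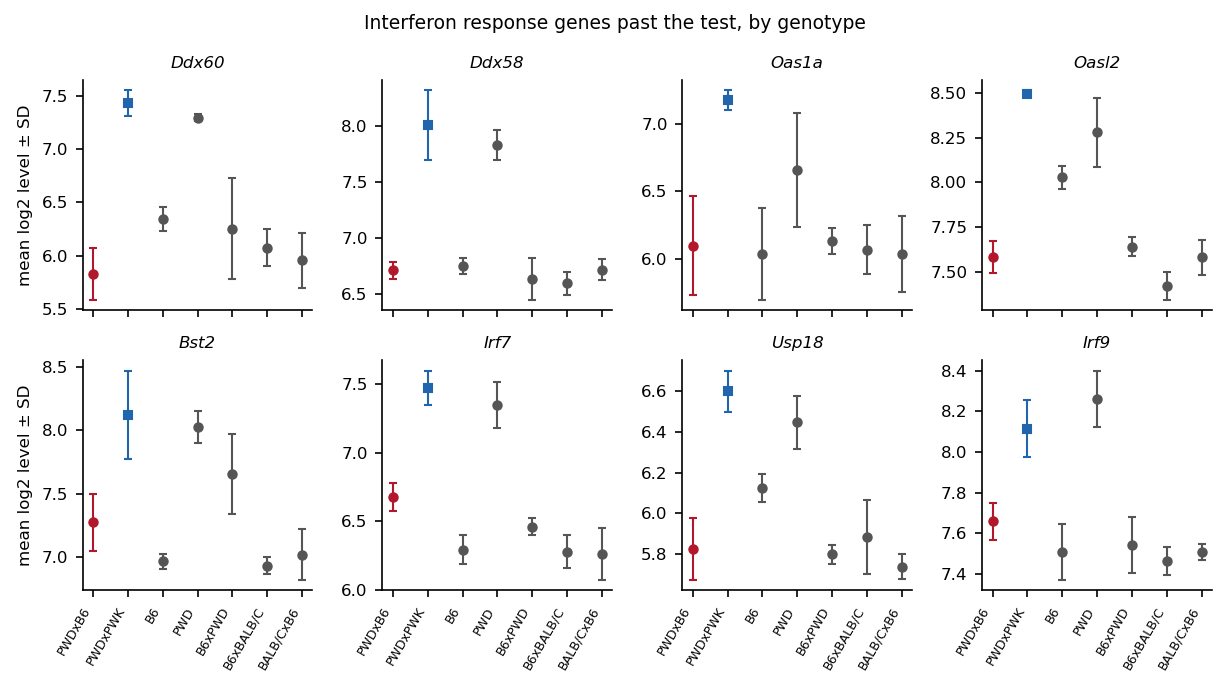
Mean log2 level with SD (vertical axes, a separate scale for each gene) of the 8 interferon response genes past the test in each of the 7 genotypes, PWDxB6 in red (3 arrays), PWDxPWK as blue squares (2 arrays) and the other 5 genotypes in grey. PWDxPWK and PWD form the high pair in each panel, for Ddx58 at 8.01 and 7.84, while PWDxB6 has 6.71.

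Autosomal differences between the hybrids tracked those between the inbred strains, which come from other arrays. Across 14221 autosomal genes r was 0.44 between PWDxB6 minus PWDxPWK and B6 minus PWD, with a slope of 0.274, and 0.645 over the 2623 genes called in B6 minus PWD. Of the 129 autosomal genes higher in PWDxB6, 102 (79.1%) were also called higher in B6, and of the 70 lower, 61 (87.1%) were also called lower in B6. These are 8.89% of the 1148 autosomal genes higher (8.07% of all) and 4.14% of the 1475 lower (10.4% of all) in B6 minus PWD. Only 4 genes were called in opposite directions: Defb15, Fgf2 and Tafa1 were higher in PWDxB6 and lower in B6, and Plekhh2 was lower in PWDxB6 and higher in B6. These 4 are named for that count, Defb15 apart, after their values were seen.

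Fgf2, a fibroblast growth factor gene, had 7.53, 7.75 and 7.15 in PWDxB6 against 6.37 and 6.70 in PWDxPWK (difference 0.94, adjusted p = 0.00195). It averaged 6.03 ± 0.06 in B6 and 6.70 ± 0.15 in PWD (SD, n = 3 each), so PWDxB6 was above both. Tafa1, a secreted chemokine-like protein gene, had 6.37, 6.34 and 6.12 in PWDxB6 against 5.61 and 5.52 in PWDxPWK (difference 0.71, adjusted p = 0.00493). Plekhh2 had 7.96, 7.73 and 7.82 in PWDxB6 against 8.17 and 8.52 in PWDxPWK (difference -0.51, adjusted p = 0.0317). In Fgf2 and Tafa1 the lowest PWDxB6 array was above the highest PWDxPWK array.

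**Figure D4:**
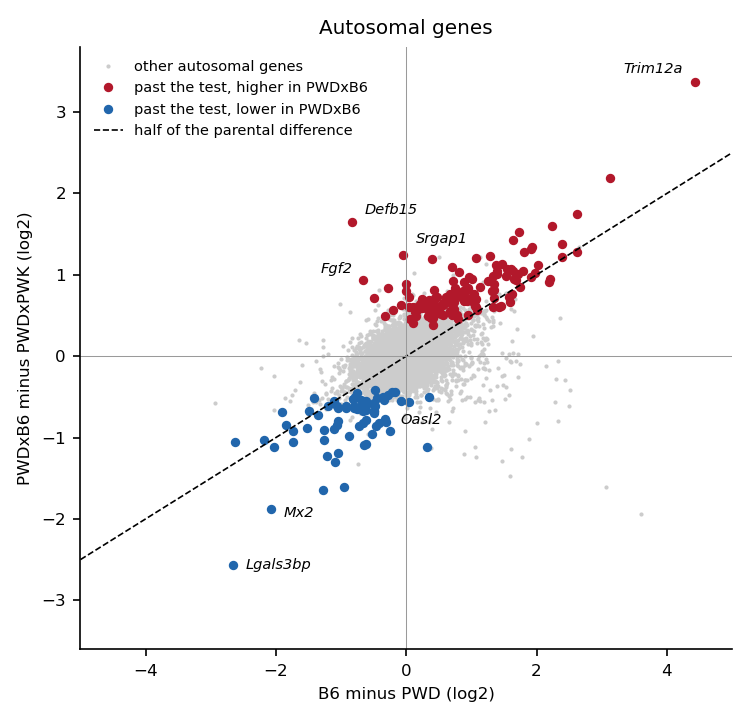
Log2 difference of each of the 14221 autosomal genes in B6 minus PWD (horizontal axis) and in PWDxB6 minus PWDxPWK (vertical axis), with the 129 genes higher in PWDxB6 in red, the 70 lower in blue and a dashed line at 0.5 times B6 minus PWD. Most coloured points lie in the upper right and lower left, and Defb15 and Fgf2 lie in the upper left.

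A yardstick for autosomal genes is 0.5 times B6 minus PWD, which places PWDxB6 midway between the inbred strains on the log2 scale and takes PWK to equal PWD. Copies that add would do so on the linear scale, where the midpoint lies higher. A contrast for the departure from that value passed for 25 autosomal genes (0.176%), 13 above (0.0914%) and 12 below (0.0844%). Measured from the linear midpoint, with no test, 24 of the 25 kept their sign. The exception was Trim12a, with an expected difference of 3.5 and a departure of -0.124, against 1.16 (adjusted p = 0.0215) on the log2 scale. The other largest departures above were Defb15 (2.07, adjusted p = 0.00218), Fgf2 (1.27, adjusted p = 0.000957), Srgap1 (1.26, adjusted p = 0.000797), a regulator of the actin cytoskeleton, and Cd59a (1.0, adjusted p = 0.0383), an inhibitor of complement. Below were Vaultrc5 (-1.28), Lgals3bp (-1.24), Ddx60 (-1.13), Rtp4 (-1.01), the cytochrome gene Cyp1b1 (-0.85), Oasl2 (-0.79) and Ddx58 (-0.76).

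Srgap1 had 7.21, 7.48 and 7.42 in PWDxB6 against 6.08 and 6.18 in PWDxPWK (difference 1.24, adjusted p = 5.9e-05), where B6 averaged 6.22 ± 0.20 and PWD 6.26 ± 0.14 (SD, n = 3 each). Cyp1b1 had 5.30, 5.21 and 5.40 in PWDxB6 against 5.44 and 5.27 in PWDxPWK, where B6 averaged 6.92 ± 0.01 and PWD 5.34 ± 0.24 (SD, n = 3 each). PWDxB6 was thus above both inbred strains in Srgap1, and no higher than PWD in Cyp1b1. Over all chromosomes the departure contrast passed for 37 genes (0.251%), 25 above (0.17%) and 12 below (0.0814%). These include 10 of 474 X-linked and 2 of 8 Y-linked genes, all above. The yardstick does not apply to them, because both hybrids carry the PWD X and only a paternal Y. The count of 37 was 11 without PWDxPWK replicate 1 and 17 without PWDxPWK replicate 2 or PWDxB6 replicate 2. It was 19 with the dimmer 50% left out, 69 without B6xBALB/C replicate 6, 92 with a replicate block and 102 with the pachytene score.

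Autosomal genes rarely moved the same way in B6xPWD minus B6xBALB/C. Of 129 higher in PWDxB6, 8 were also called higher in B6xPWD (1.06% of the 753 higher there, themselves 5.29% of autosomal genes) and 34 were called lower (3.63% of autosomal genes were, and 8.92% were called in either direction), and of 70 lower in PWDxB6, 0 were called lower and 20 higher. Without B6xBALB/C replicate 6 these counts were 8, 35, 0 and 22, while autosomal genes called lower in B6xPWD numbered 820, against 516 with it. The 8 shared genes, singled out after their values were seen, were Defb15, Srgap1, 1700007K13Rik, Resf1, Tafa1, Plin2, Pmaip1 and Smpd1. Defb15 had 1.35 and Pmaip1 0.70 in B6xPWD minus B6xBALB/C. The paternal copy added to a hybrid is B6 in PWDxB6 and PWD in B6xPWD, so strain differences run in opposite directions in the 2 comparisons. The interaction over all genes passed for 759 (5.15%), 367 positive (2.49%) and 392 negative (2.66%), and holds those differences. Its 5 largest positive genes were Trim12a (3.07), 1700006J14Rik (2.81), 2610524H06Rik (2.55), Bbox1 (2.51) and Plbd1 (2.48), and its 5 largest negative ones were Lgals3bp (-3.42), Kcnc2 (-2.73), Gask1a (-2.57), Mx2 (-2.48) and Rps3a1 (-2.41), a ribosomal protein gene with many copies.

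Meiotic genes showed few calls. Pmaip1, the apoptosis gene also known as Noxa, had 7.67, 7.95 and 7.35 in PWDxB6 against 7.06 and 7.04 in PWDxPWK (difference 0.60, adjusted p = 0.0238), and lost its call in 6 of 15 alternatives. It was the only one of 17 tested genes of DNA damage and apoptosis past the test. Mei1, needed for meiotic DNA breaks, had 8.29, 7.86 and 8.02 in PWDxB6 against 8.74 and 8.65 in PWDxPWK (difference -0.64, adjusted p = 0.0363), and lost its call in 5 of 15. Prdm9, which sets the sites of those breaks, had 8.15, 7.94 and 8.04 in PWDxB6 against 8.23 and 8.55 in PWDxPWK, a difference of -0.35 that did not pass (adjusted p = 0.494). Between the inbred strains, B6 minus PWD was -0.92 for Mei1 (adjusted p = 6.98e-05) and 0.10 for Pmaip1 (adjusted p = 0.639). The departure of Mei1 from 0.5 times B6 minus PWD was -0.18 (adjusted p = 0.928).

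Mei1 was the only called gene of 22 tested recombination genes, whose median was -0.172, with 6 at an unadjusted p under 0.05 (1662 of all 14745 genes were) and no overlap of groups in 12 (26.9% of all genes). Of 14 genes that silence the sex body, 0 passed the limma test and 5 had an unadjusted p under 0.05, with a median of -0.153 and -0.44 for Brca1 and -0.34 for Atr, which mark unpaired chromosomes. Of 21 synapsis and cohesin genes 0 passed and 1 had an unadjusted p under 0.05 (median -0.047). Of 20 piRNA genes, which silence transposons, 0 passed and 2 had one (median -0.141), and of 9 spermatid genes 0 passed and 1 had one (median -0.09). Of 27 pachytene genes only the X-linked Ccnb3 passed (median -0.119). Among 20 spermatogonial genes Ret, a receptor for GDNF in stem cells, was lower (-0.53, adjusted p = 0.0107) and no other passed (median -0.047). Background shares for these counts are 0.956% higher and 0.475% lower. For Ret, B6 minus PWD was -0.82 (adjusted p = 3.35e-06), and the departure from 0.5 times that was -0.12 (adjusted p = 0.933). List medians of B6 minus PWD were -0.23 for recombination, -0.134 for sex-body silencing, -0.2 for synapsis and cohesin and -0.095 for spermatogonial genes. They were -0.034 for spermatid, 0.294 for piRNA and 0.431 for pachytene genes.

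Imprinted genes are read from 1 parental copy. Of 22 tested, Nnat, which is read from the paternal copy, was lower, and no other passed (median 0.02). Nnat had 6.38, 6.59 and 6.27 in PWDxB6 against 7.45 and 7.44 in PWDxPWK (difference -1.04, adjusted p = 0.000113). It averaged 6.23 ± 0.09 in B6 against 7.49 ± 0.09 in PWD (SD, n = 3 each), and 7.33 ± 0.09 in B6xPWD (SD, n = 3) against 6.06 ± 0.22 in B6xBALB/C (SD, n = 6). Its level was near that of the father's strain in PWDxB6 and in B6xPWD.

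Of markers of germ cells on the array, 20 of 21 spermatogonial and 27 of 28 pachytene genes were bright enough to be tested, as were 23 of 23 Sertoli, 16 of 17 peritubular, 13 of 13 endothelial, 11 of 15 macrophage, 7 of 8 Leydig and 2 of 2 red blood cell genes. Of 16 tested peritubular and stromal genes 2 smooth muscle genes were higher in PWDxB6, where 0.956% of all genes were. Actg2 had 6.91, 7.15 and 7.29 in PWDxB6 against 6.22 and 6.08 in PWDxPWK (difference 0.97, adjusted p = 0.000494), and Cnn1 had 7.48, 7.93 and 7.90 in PWDxB6 against 6.81 and 6.95 in PWDxPWK (difference 0.89, adjusted p = 0.0046). Between the inbred strains, B6 minus PWD was 0.96 for Actg2 (adjusted p = 2.05e-05) and -0.01 for Cnn1 (adjusted p = 0.974). The list's score was -0.0001, -0.0441 and 0.2436 in PWDxB6 against -0.2443 and -0.1609 in PWDxPWK. It averaged 0.198 ± 0.13 in inbred B6 and -0.002 ± 0.098 in PWD (SD, n = 3 each). By limma 0 passed of 23 Sertoli (median 0.073), 7 Leydig (0.124), 13 endothelial (0.017) and 2 red blood cell genes (-0.088). The first 2 of these lists had 1 gene each with an unadjusted p under 0.05, and the last 2 had 0.

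Genes of dissociation stress, such as the immediate early genes Fos and Jun, had a median difference of 0.329 with 0 of 19 past the limma test and 4 at an unadjusted p under 0.05. Their score was -0.1508, 0.0373 and 0.1363 in PWDxB6 against -0.2589 and -0.3921 in PWDxPWK, with 0.1462 in PWD as the middle of 3 arrays. Of 7 control genes 0 passed and 1 had an unadjusted p under 0.05 (median 0.01). Of 22 lists, 10 had scores that did not overlap between the hybrids, where 26.9% of single genes did not. A score can rest on few genes. The imprinted list had a median of 0.02 with 12 of 22 positive, and the red blood cell list has 2 tested genes. On the Y-linked list, 2 of 8 genes were called. Scores were higher in PWDxB6 for X-linked germ cell genes, Hstx2 interval genes, Y-linked genes, peritubular cells and dissociation stress, and lower for interferon response, imprinted genes, red blood cells, recombination and sex-body silencing. The recombination score was -0.0588, -0.0805 and -0.2146 in PWDxB6 against 0.0582 and 0.0258 in PWDxPWK, and the silencing score -0.0137, -0.0762 and -0.1379 in PWDxB6 against 0.109 and 0.0665 in PWDxPWK. The recombination score averaged -0.185 ± 0.183 in inbred B6 and -0.047 ± 0.127 in PWD (SD, n = 3 each). The silencing score averaged -0.11 ± 0.124 in B6 and 0.019 ± 0.073 in PWD (SD, n = 3 each). The part of these lists in the X-linked and interferon values was not tested.

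**Figure D5:**
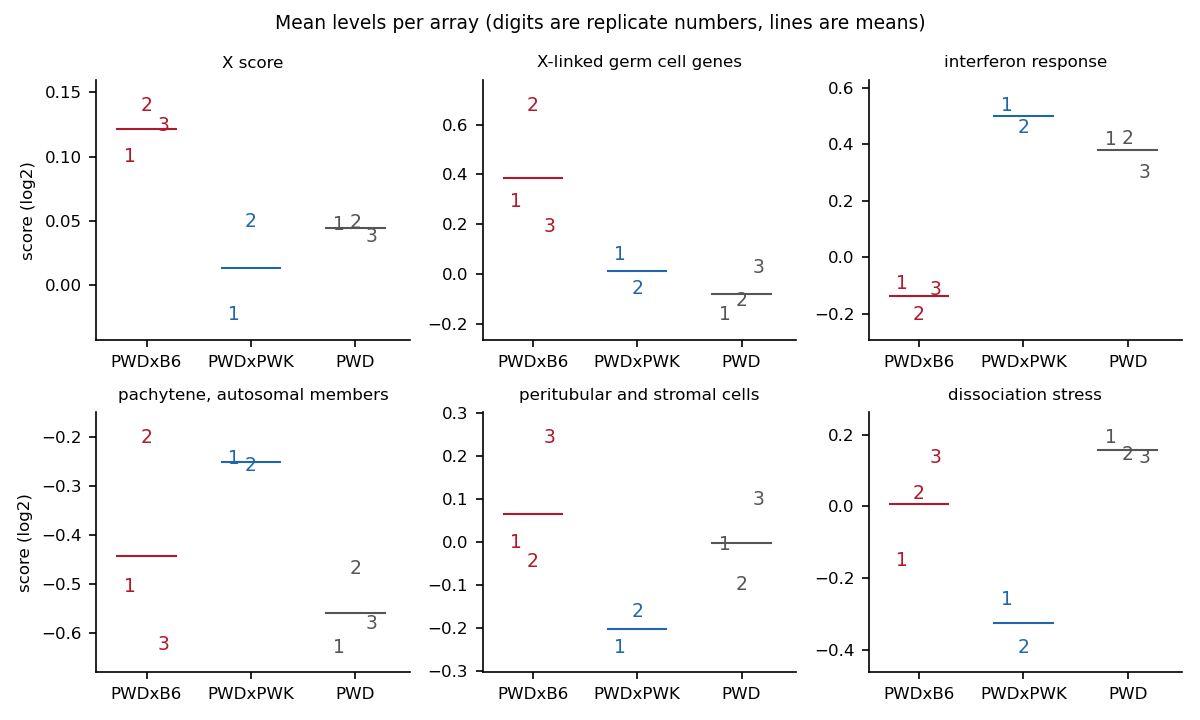
Mean levels of 6 gene groups on each array (vertical axes, log2), in PWDxB6 (red), PWDxPWK (blue) and PWD (grey). Digits are replicate numbers and lines are means. Levels are relative to all arrays, except the X score, which is the mean of X-linked less that of autosomal genes. PWDxB6 and PWDxPWK do not overlap for the X score, X-linked germ cell genes, interferon response, peritubular cells and dissociation stress, and overlap for pachytene genes.

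Each hybrid can also be set against its mother's strain, although both values then share the PWD arrays with each other. PWDxB6 minus PWD had 340 genes past the test (2.31%), 196 of them higher (1.33%). On the X 19 passed (4.01%), 17 higher (3.59%) and 2 lower (0.422%), and over all chromosomes 1954 genes had an unadjusted p under 0.05. PWDxPWK minus PWD had 1 gene past the limma test (0.00678%) and 419 at an unadjusted p under 0.05. That gene was Aldh7a1, a lysine breakdown enzyme, with 9.36 and 9.36 in PWDxPWK against a mean of 8.69 ± 0.08 in PWD (SD, n = 3), a difference of 0.66 (adjusted p = 0.0207). For 1700080O16Rik the means were 9.25 ± 0.44 in PWDxB6 (SD, n = 3) and 7.49 ± 0.32 in PWDxPWK (SD, n = 2), beside 7.47 ± 0.09 in PWD (SD, n = 3).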

How the data were processed

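RNA of 23 pools was hybridized to Affymetrix Mouse Gene 1.0 ST arrays. The authors deposited a log2 value per probe set and array (25690 probe sets); the base was read from the range, 1.17 to 13.96, and how they were normalized is not given in the sources used here. Scanner files were not analysed here. By the platform annotation, 20777 probe sets had 1 gene symbol, 232 several and 4681 none, and 20696 matched the gene table of GRCm38.p6. For 564 genes with several probe sets the brightest was used, and the dimmest 25% of genes (mean log2 up to 5.125) were left out.

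A model with 7 genotype means (16 residual degrees of freedom) was fitted with limma 3.58.1 in R 4.3.3, with moderated variances and Benjamini-Hochberg adjustment over 14745 genes; calls have an adjusted p under 0.05. The contrasts were PWDxB6 minus PWDxPWK, its departure from 0.5 times B6 minus PWD, and its interaction with B6xPWD minus B6xBALB/C. Standard errors are the model's. A list's score is the mean of its gene-centred log2 values on an array. The hybrids, the lists and the tests were chosen with earlier results of these data known.

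The text names the 10 genes with the largest called rise and the 10 with the largest fall whose groups do not overlap, the 8 largest such X-linked genes each way, up to 4 called members per list, the Y-linked genes, Prdm9, and the 5 largest each way of the other contrasts; any other gene given with values was picked after they were seen. The fit was tested on simulated data with known changes in PWDxB6. It called 30.4% of changes of 0.5 and 94.7% of changes of 1 on the log2 scale, and 4.14% of calls were false. A gene or list without a call can thus still differ by such amounts. Alternatives covered filters, scaling, probe set means, variance and weights, a replicate block, fitting the 5 arrays alone, a pachytene covariate, and each PWDxB6 and PWDxPWK array left out; each array of the other 5 genotypes was left out too, for the counts alone, as chosen after seeing the data. Figures used Python 3.11.15 and matplotlib 3.10.9.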

Additional observations from a re-analysis of the deposited data

Results flagged for a closer look

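Interactions on the sex chromosomes passed the test for 2 genes the report names by rule or count: Eif2s3y at -0.54 (adjusted p = 0.0233), which was higher by 0.14 in PWDxB6 than in PWDxPWK and by 0.68 in B6xPWD than in B6xBALB/C, and Praf2 at 0.78 (adjusted p = 0.0108), with 0.57 and -0.21 in the same comparisons. For the Y-linked Eif2s3y the interaction also holds strain differences of the paternal Y. Among the 6 B6xBALB/C arrays, which serve in the interaction, 4 of 52 named genes had an array apart from the others, where chance gives about 1 in 20. These were S100b with 5.04 on replicate 5 (lowest), Ret with 8.1 on replicate 6 (highest), Uty with 7.49 on replicate 1 (lowest) and Plbd1 with 8.16 on replicate 6 (highest). B6xBALB/C replicate 6 also stood apart in its pachytene score (-0.6348) and its synapsis score (-0.401, against 0.0026 to 0.3702 on the other 5 arrays); without it the interaction was -0.55 for Eif2s3y and 0.76 for Praf2. No group of PWDxB6 or PWDxPWK is large enough for that check.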

How the results depend on the processing

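No named gene with a call changed sign. Among values not called, Sry ranged over -0.142 to 0.434, Uba1y over -0.518 to 0.0706 and Cyp1b1 over -0.136 to 0.0288 when an array was left out, and the medians of spermatogonial, Sertoli, macrophage, endothelial, DNA damage and control genes and of all genes also crossed 0. The 211 calls became 139 with the dimmer 50% of genes left out, 137 with the 5 arrays fitted alone and 341 with the pachytene score, and 5, 6 and 16 for the X, and 132, 129 and 322 for autosomes. Departures from 0.5 times B6 minus PWD, with X- and Y-linked genes counted, became 19 with the dimmer 50% left out and 102 with the pachytene score. Interactions became 2065 with array weights and 1263 with the pachytene score, and X-linked ones 53 with array weights and 10 with the dimmer 50% left out. Leaving out any 1 of the 23 arrays gave 94 to 253 calls, 6 to 12 on the X, 88 to 240 on autosomes, 11 to 69 departures, 365 to 933 interactions (4 to 21 X-linked) and, over the 5 arrays compared, an X score difference of 0.072 to 0.144; the lowest counts came without PWDxPWK replicate 1, except 4, which came without PWDxPWK replicate 2. Interactions were 482 without PWDxB6 replicate 3 and 490 without B6xPWD replicate 2, and 69 departures came without B6xBALB/C replicate 6. The cause was not tested, except that fewer genes or arrays entered some fits. Replicate numbers are not said to pair arrays (correlation -0.098 between the groups' deviations); the replicate block gave 244 calls and 92 departures. Centred on the autosomal median, interactions split into 311 higher and 474 lower, against 367 and 392. With B6xBALB/C replicates 1 to 3 alone, chosen after seeing the data, 995 interactions passed, and 731 with replicates 4 to 6. Of 42 named genes called, 24 kept the call in every alternative and 18 lost it in 1 or more. The departure and the interaction need other genotypes and have no value with the 5 arrays alone. With 3 and 2 arrays, the smallest permutation p is 0.2.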

Other observations

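Calls were spread over all autosomes, from 0.613% of the genes on chromosome 19 to 2.74% on chromosome 3, where 14 were higher and 4 lower in PWDxB6. On chromosome 1 all 7 called genes were higher, and on the X all 10.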
